A study of Rattus norvegicus with 22 samples.

Results

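Neuropeptide precursors were examined as the probe sets that the platform annotation assigns to Penk, Pdyn, Pomc, Npy, Tac1, Sst, Cck, Gal or Vip. The value table held 9 such probe sets for 7 of the 9 genes, among 1050 probe sets in all, and each probe set was kept apart. Pomc and Vip had 0 probe sets in the table, so they enter below only with their promoter sequences. Of the 9, 5 carry the ending _s_at, by which Affymetrix marks probes that can match more than 1 transcript, and these were the probe sets for Penk, Pdyn and Tac1 and the dimmer of 2 for Sst.

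The study compared the transcripts of identified neurons of the lumbar cord of Wistar rats at postnatal days 0 to 4. Descending commissural interneurons (dCINs), whose axons cross the midline and run caudally, were back-filled with rhodamine dextran from a cut of one side of the cord caudal to their segment and gave 7 arrays of 50 to 100 cells each. Motor neurons (MNs) were back-filled in the same way from the cut ventral roots of the second lumbar segment and gave 7 arrays of 55 to 250 cells, and 8 further arrays (MIX) held 95 to 187 cells dissected at random from ventral sections of that segment. All cells were cut by laser from 10 µm sections, and their RNA was amplified in a pair of linear rounds and hybridised to Rat Neurobiology U34 arrays, each array from a different animal. The tracer marks only cells whose cut axons took it up. The dCINs are a group of inhibitory and excitatory cells. MIX holds both dCINs and MNs among its cells, per the study's description, and their shares are not given in the sources used here.

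Neuropeptides are cut from larger precursor proteins, stored in dense core vesicles and released mostly during repetitive firing, and they act on G protein-coupled receptors over longer times than the fast transmitter of the same neuron. In the spinal cord, enkephalins, dynorphins, neuropeptide Y, somatostatin, galanin, cholecystokinin and substance P are best known from interneurons and sensory afferents of the dorsal horn. A precursor transcript marks a neuron that could make the peptide, and the array did not measure the peptide itself.

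Signals are given as the deposited linear expression summaries, which have no unit and cannot be compared between probe sets. Differences are given on the log2 scale as dCIN minus MN, MIX minus MN or MIX minus dCIN, with the limma standard error (SE) and a p-value adjusted by the Benjamini-Hochberg method over all 1050 probe sets. A probe set was called where its adjusted p was under 0.1. In dissected material a lower signal can come from fewer cells that make a transcript or from less of it in each cell, and these cannot be told apart.

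Certain arrays stood apart before any comparison. The MN arrays numbered 1 and 2 came from 250 and 230 cells, had the lowest median correlations with the other arrays (0.834 and 0.813) and had 3′ to 5′ ratios of the Gapdh control probes of 22.7 and 17.6, against 2.35 to 5.92 in dCIN and 0.902 to 3.42 in MIX arrays. Their ratios for actin were instead the lowest of the MN arrays, 3.36 and 3.02, and arrays 1 and 2 were also the lowest of their group for actin in dCIN (3.11 and 4.00) and MIX (3.43 and 5.01). The arrays numbered 1 and 2 lay both above or both below all other arrays of their group for 51% of all probe sets in MN, 25.6% in dCIN and 4.76% in MIX. By chance these shares would be 9.52% in MN and dCIN and 7.14% in MIX. Differences between dCINs and MNs that lean on arrays 1 and 2 are given below with and without them. MIX array 7 had the lowest summed signal of all arrays. Motor neuron markers followed the labels: the summed signal of 5 probe sets for Slc18a3, Nefh and Calcb ran from 6703 to 8929 in MN and from 924 to 2580 in dCIN arrays. The 2 probe sets for Slc32a1, the vesicular inhibitory amino acid transporter, summed to 387 to 804 in dCIN and 72.1 to 399.8 in MN arrays, and these ranges overlapped. Of the 5, 3 were called higher in MNs, and of the 2, 1 was called higher in dCINs (3.81% of all probe sets were called). Genes that mark glutamatergic neurons had no probe set in the table.

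Between dCINs and MNs, 2 of the 9 probe sets were called, those for Penk and Npy, and both were higher in dCINs. The paper lists both genes as higher in dCINs from the same arrays, so these calls repeat its finding and are no independent evidence. Among all 1050 probe sets, 3.81% were called in either direction and 2.38% were called higher in dCINs. The same 2 members were also the ones whose groups did not overlap, which held for 1.62% of all probe sets. The other 7 members were not called. By log2 mean 3 of the 9 were higher in dCINs, against 43% of all probe sets, and 6 were lower. The median difference of the 9 was -0.17 against -0.034 over all probe sets, and their median absolute difference was 0.23 against 0.13.

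**Figure D1:**
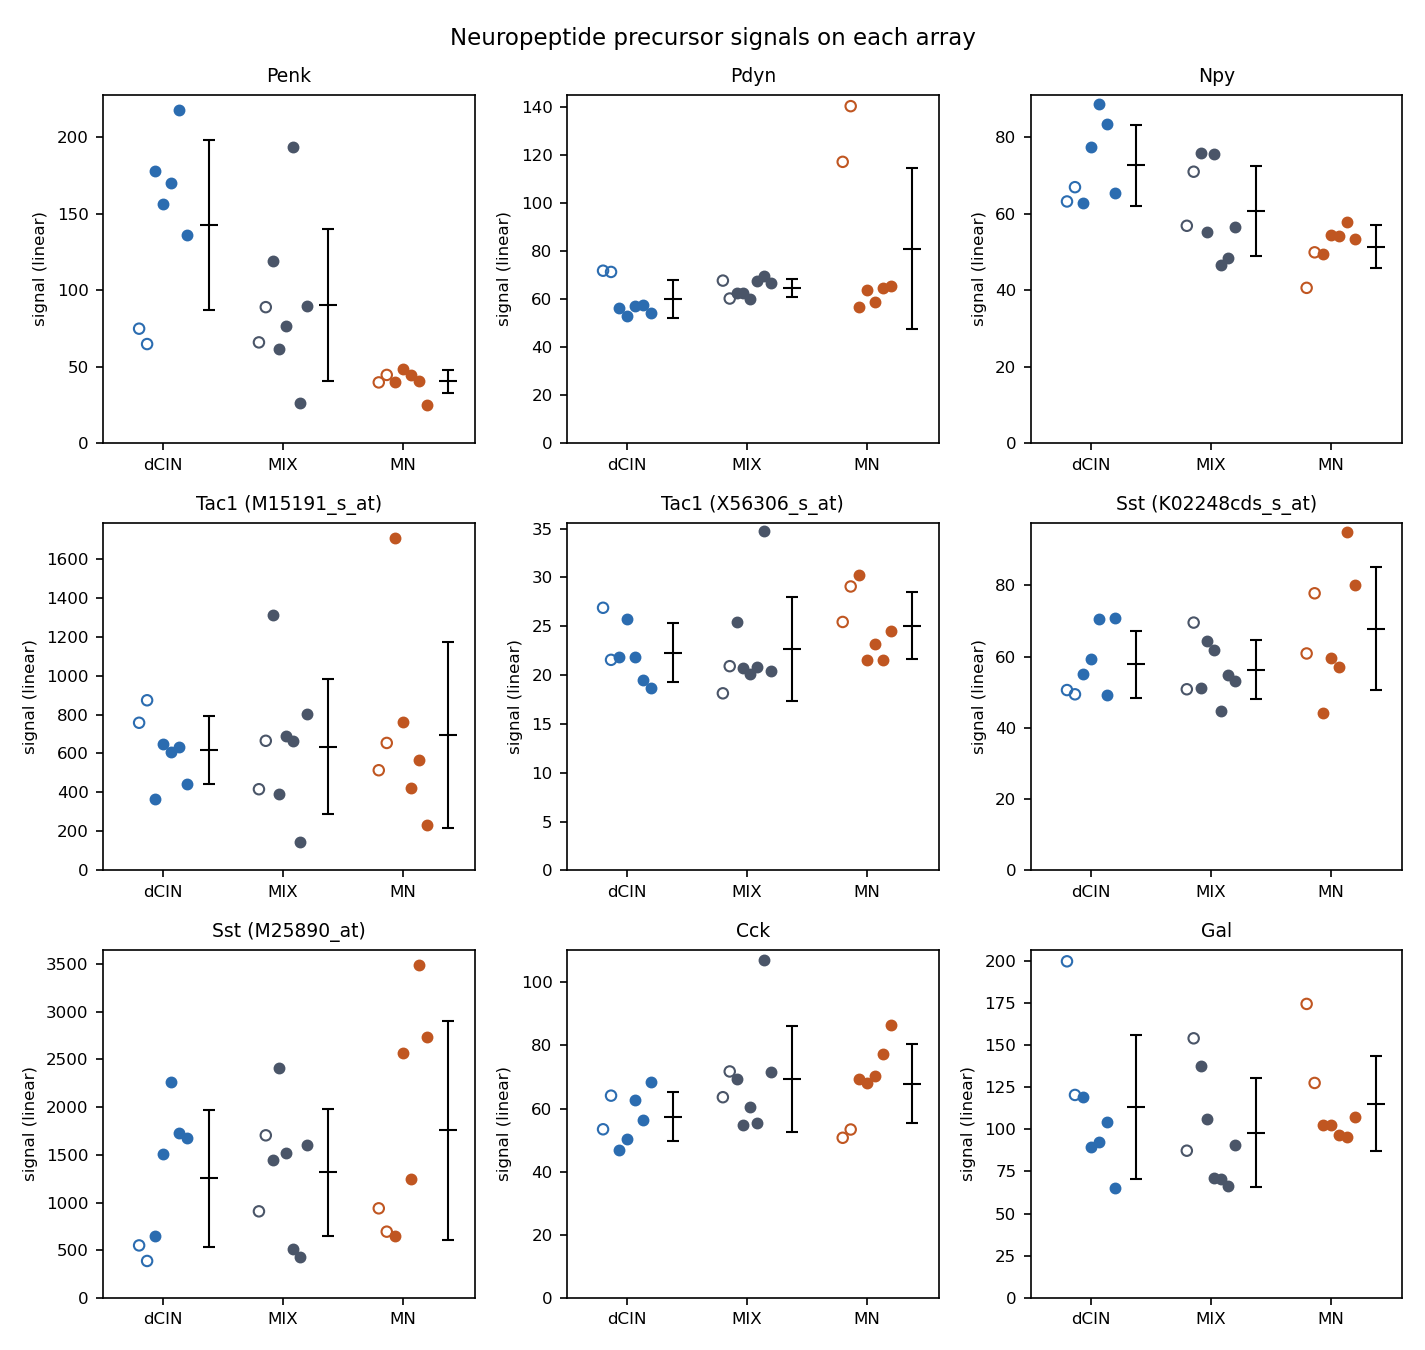
Linear expression summaries of the 9 neuropeptide precursor probe sets on each of the 22 arrays, a panel for each probe set with its own vertical axis from 0. Points are arrays in number order within dCIN, MIX and MN, open points are the arrays numbered 1 and 2, and black bars give the mean ± SD of the group. Every dCIN array lay above every MN array for Penk and for Npy. MIX arrays overlapped both groups for these 2, and dCIN and MN overlapped in the other 7 panels.

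Penk encodes proenkephalin, the precursor of the enkephalins, which act on delta and mu opioid receptors. Its signal (S49491_s_at) on the 7 dCIN arrays, in number order, was 74.8, 64.7, 178, 156, 170, 218 and 136, and on the 7 MN arrays it was 39.6, 44.5, 39.9, 48.4, 44.7, 40.4 and 24.9. The lowest dCIN array thus lay above the highest MN array, and dCIN was higher in 49 of 49 pairs of arrays. The group means were 143 ± 55.7 (SD, n = 7) in dCINs and 40.4 ± 7.55 (SD, n = 7) in MNs. The log2 difference was 1.73 (SE 0.26, 95% confidence interval 1.19 to 2.28), a 3.32-fold higher signal, with a limma adjusted p of 0.000949, the 7th smallest p of the 1050. A two-sided exact permutation test of the 14 arrays gave p = 0.000583, the smallest that 7 against 7 arrays allow, and 0.036 after adjustment over all probe sets.

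The Penk values of dCINs fell into separate sets. The dCIN arrays 1 and 2, at 74.8 and 64.7, lay apart from the other 5, which ran from 136 to 218, whereas the MN arrays 1 and 2 lay within the range of the other MN arrays. With only arrays numbered 3 and above, the means were 172 ± 30.5 (SD, n = 5) in dCINs and 39.7 ± 8.97 (SD, n = 5) in MNs, and the log2 difference was 2.13 (SE 0.18, limma adjusted p = 7.01e-05). That split left out the 2 dCIN arrays with the lowest Penk, so a larger difference follows from the choice. The split was chosen with earlier results of these data known, and the labels name no batch. MN array 7 gave the lowest Penk signal of all arrays, and without it the difference was still called.

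Npy encodes the precursor of neuropeptide Y, a peptide of inhibitory interneurons and sympathetic neurons that acts mostly through receptors coupled to inhibitory G proteins. Its signal (M15880_at) on the dCIN arrays was 63.2, 67.0, 62.9, 77.6, 88.7, 83.7 and 65.5, and on the MN arrays 40.6, 49.9, 49.4, 54.4, 54.3, 58.0 and 53.3. The ranges did not overlap, but only 62.9 in the lowest dCIN array and 58.0 in the highest MN array separated them. The means were 72.7 ± 10.6 (SD, n = 7) and 51.4 ± 5.58 (SD, n = 7), and the log2 difference was 0.49 (SE 0.11, 95% confidence interval 0.26 to 0.73), a 1.41-fold higher signal with a limma adjusted p of 0.0155. The MN means of Npy and Penk, 51.4 and 40.4, lay near the array medians over all probe sets, 43.5 to 50.9. Detection calls were not used, so whether MNs make either transcript was not tested, and the folds rest on signals near that level. The arrays numbered 1 and 2 did not stand apart for Npy in any group, and the difference over arrays numbered 3 and above was 0.48 (SE 0.12, limma adjusted p = 0.0406).

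The promoter of Npy, the called member for which a RefSeq promoter was at hand, is shown as the 250 bases before the annotated start on the plus strand of chr4:80211861-80212110 (GRCr8), 5′ to 3′, with capitals on GGGCGG, the core letters of a GC box.
Npy promoter: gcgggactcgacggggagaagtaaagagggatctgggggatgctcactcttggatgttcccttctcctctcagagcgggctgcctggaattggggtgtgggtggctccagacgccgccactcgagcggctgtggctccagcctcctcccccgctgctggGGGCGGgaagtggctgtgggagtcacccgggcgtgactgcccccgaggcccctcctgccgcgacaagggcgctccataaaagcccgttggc

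GGGCGG, searched on both strands of windows of 300 bases, was present in 33.063% of the 33469 rat promoters, in 54.104% of the 536 promoters of genes on the array and in 2 of the 7 precursor genes with a promoter entry, Npy and Pomc. The letters TATAAA were in 4 of the 7 (Pdyn, Pomc, Gal and Vip) against 14.222% of all promoters and 11.007% of those on the array, and were absent from the Npy window. Penk and Cck have no entry in the promoter table.

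**Figure D2:**
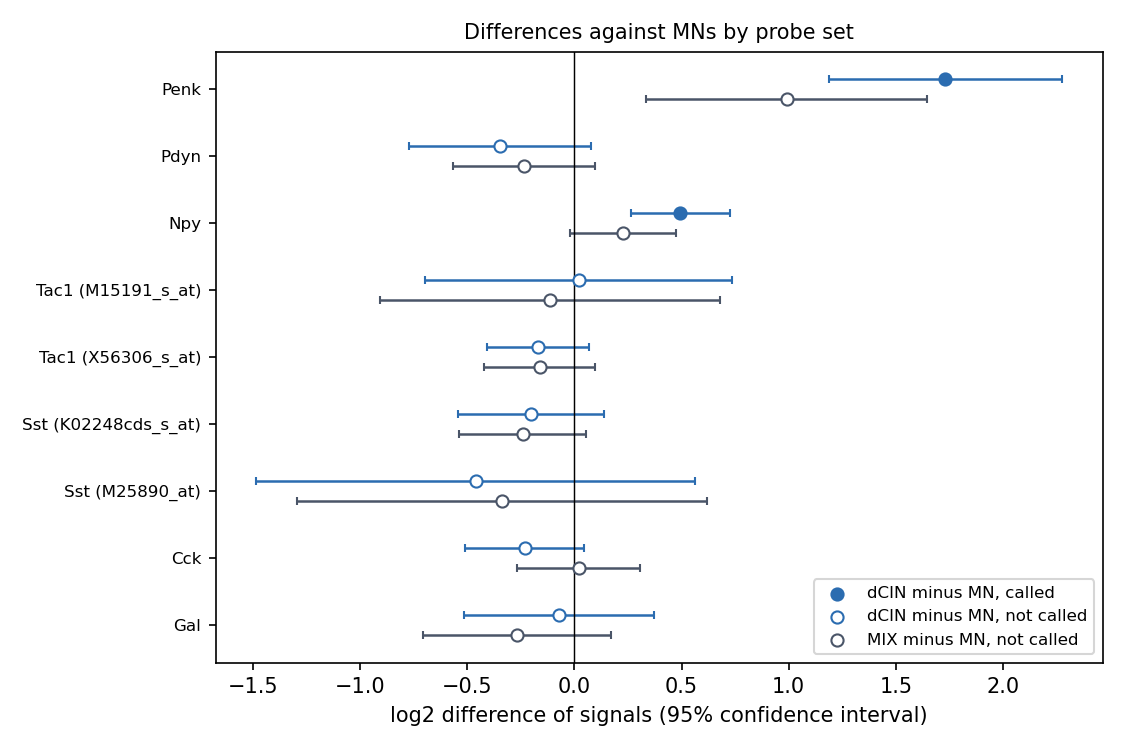
Log2 differences of the 9 probe sets for dCIN minus MN (7 against 7 arrays) and MIX minus MN (8 against 7 arrays), with 95% confidence intervals from limma. Filled points were called at an adjusted p under 0.1, which held for Penk and Npy in dCIN minus MN, and both contrasts use the same MN arrays.

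Pdyn encodes prodynorphin, the precursor of dynorphins, opioid peptides that prefer the kappa receptor. Its signal (M10088cds_s_at) was 71.8, 71.3, 56.4, 53.0, 57.1, 57.6 and 54.0 on dCIN arrays and 117, 140, 56.5, 63.6, 58.6, 64.5 and 65.3 on MN arrays. In both groups the arrays numbered 1 and 2 were the highest and stood clear of the other 5, and the 2 MN arrays set the width of the MN spread, 80.9 ± 33.6 (SD, n = 7) against 60.2 ± 7.95 (SD, n = 7) in dCINs. The log2 difference was -0.35 (SE 0.20, 95% confidence interval -0.77 to 0.08, limma adjusted p = 0.605). With a term for arrays numbered 1 and 2 the same difference of -0.35 had a limma adjusted p of 0.0817, and 83 probe sets of the table were called in that fit against 40 without the term. The difference shrank to -0.15 (limma adjusted p = 0.546) over arrays numbered 3 and above, to -0.044 (limma adjusted p = 0.942) without the samples of over 200 cells, which are the MN arrays 1 and 2, and to -0.20 without MN array 2 alone.

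Tac1 encodes the precursor of substance P and neurokinin A. Its brighter probe set (M15191_s_at) gave 758, 873, 368, 649, 609, 632 and 441 on dCIN arrays, and 514, 654, 1707, 759, 424, 565 and 233 on MN arrays. The MN values held both the lowest and the highest of these 14, and the linear means were 619 ± 173 for dCIN and 694 ± 477 for MN arrays (SD, n = 7 each). The means of the log2 values, on which MN array 3 weighs less, were 9.22 and 9.20, a difference of 0.020 with the opposite sign (SE 0.34, 95% confidence interval -0.69 to 0.73, limma adjusted p = 0.997), and over arrays numbered 3 and above the difference was -0.17. The other probe set (X56306_s_at) lay below the median signal on every array. It averaged 22.3 ± 3.02 on dCIN and 25.1 ± 3.46 on MN arrays (SD, n = 7 each), with a difference of -0.17 (SE 0.11, limma adjusted p = 0.690). Across the 22 arrays the brighter probe set spanned 11.8-fold, the widest range of the 9, and group membership accounted for 0.664% of its log2 variance. The 2 probe sets did not vary together (Pearson r = -0.072 over the 22 arrays).

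Sst encodes preprosomatostatin, the precursor of an inhibitory peptide of interneurons. Its brighter probe set (M25890_at) gave 550, 387, 654, 1506, 2265, 1732 and 1679 on dCIN arrays, and 939, 695, 647, 2566, 1247, 3492 and 2732 on MN arrays. In both groups the arrays numbered 1 to 3 were the 3 lowest, and the groups overlapped over most of their range. The means were 1253 ± 719 and 1760 ± 1148 (SD, n = 7 each), with a difference of -0.46 (SE 0.48, 95% confidence interval -1.48 to 0.56, limma adjusted p = 0.754). It was -0.32 over arrays numbered 3 and above, -0.79 without the samples of over 200 cells and -1.01 with array weights (limma adjusted p = 0.281). Leaving out 1 array moved it in both directions, to between -0.65 without MN array 3 and -0.22 without dCIN array 2. The dimmer probe set (K02248cds_s_at) had means of 57.8 ± 9.39 and 67.8 ± 17.3 (SD, n = 7 each) and a difference of -0.20 (SE 0.16, limma adjusted p = 0.716). Unlike those of Tac1, the 2 Sst probe sets varied together over the 22 arrays (r = 0.63), and the brighter one was the probe set of the table most like the dimmer one.

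Sst is also known for the cyclic AMP response element of its promoter, and the letters of that element are shown in capitals in the 30 bases of the plus strand at chr11:90461537-90461566 (RefSeq, GRCr8), where they begin 2 bases after the annotated start.
Sst promoter: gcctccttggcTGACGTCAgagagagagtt

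TGACGTCA was present in 1.829% of all promoters, in 3.545% of those on the array and in 1 of the 7 precursor genes with an entry. Its first letters, TGACG, which the full element contains, were in 4 of the 7 (Tac1, Sst, Gal and Vip) against 21.205% of all promoters and 27.425% of those on the array, and in neither Npy nor Pdyn.

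Cck encodes the precursor of cholecystokinin, a peptide of the gut and brain. Its signal (X01032_at) was 53.4, 64.1, 46.8, 50.3, 62.6, 56.5 and 68.4 on dCIN arrays and 50.7, 53.4, 69.3, 68.2, 70.2, 77.2 and 86.5 on MN arrays. The MN arrays 1 and 2 were the lowest of their group and lay within the dCIN range, while 4 of the other 5 MN arrays lay at or above 69.3 and so above every dCIN array. The difference was -0.23 (SE 0.13, 95% confidence interval -0.51 to 0.05, limma adjusted p = 0.598), and with array weights it was -0.37 (limma adjusted p = 0.051), in a fit that called 76 probe sets of the table. Over arrays numbered 3 and above it was -0.39 (limma adjusted p = 0.149).

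Gal encodes the precursor of galanin, a peptide made by some sensory, sympathetic and central neurons that rises in many of them after axon damage. Its signal (J03624_at) was 199.5, 120, 119, 89.4, 92.7, 104 and 65.4 on dCIN arrays and 174, 127, 102, 103, 96.3, 95.3 and 107 on MN arrays. In both groups array 1 was the highest and array 2 the next, and the remaining arrays overlapped. The means of 113 ± 42.6 and 115 ± 28.2 (SD, n = 7 each) differed by -0.072 on the log2 scale (SE 0.21, 95% confidence interval -0.51 to 0.37, limma adjusted p = 0.922), and the sign changed in fits that allowed for the number of cells or the weight of each array and without dCIN array 7 or MN array 1. Over arrays numbered 3 and above it was -0.12 (limma adjusted p = 0.813), and without dCIN array 1 it was -0.22.

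The MIX arrays show where random ventral cells lay for the same probe sets. In MIX against MN 0 of the 9 members were called by limma, against 0.952% of all probe sets. At an unadjusted p under 0.05 there was 1 member (11.8% of all), Cyber-T, a regularised test with a variance prior from probe sets of like signal, called 1 (0.762% of all) and the exact permutation test called 0 (0.19% of all). In MIX against dCIN 0 of the 9 were called, against 0.476% of all, with 2 at an unadjusted p under 0.05 (7.14% of all), 0 called by Cyber-T (0.476% of all) and 0 by the permutation test (0.19% of all). Both contrasts reuse arrays of the dCIN and MN comparison.

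Penk on the 8 MIX arrays was 65.8, 88.9, 119, 61.7, 76.3, 194, 26.0 and 89.5, with a mean of 90.1 ± 49.6 (SD, n = 8). Of these arrays 7 lay above every MN array and 6 lay within the dCIN range, and array 7, at 26.0, lay within the MN range. The difference MIX minus MN was 0.99 (SE 0.32, 95% confidence interval 0.34 to 1.65), a 1.99-fold higher signal that was not called (limma adjusted p = 0.237). Without MIX array 7 it was 1.22 and was called (limma adjusted p = 0.0371), as it was under array weights (1.14, limma adjusted p = 0.0249) and by Cyber-T (adjusted p = 0.0493). It was not called in the other 28 of 31 alternatives, with a limma adjusted p of 0.614 without the samples of over 200 cells. The fit with array weights called 33 probe sets of the table, against 10 in the reported fit. The difference MIX minus dCIN was -0.74 (SE 0.32, 95% confidence interval -1.40 to -0.08, limma adjusted p = 0.616).

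Npy on the MIX arrays was 56.9, 71.0, 76.1, 55.2, 75.6, 46.7, 48.4 and 56.5, with a mean of 60.8 ± 11.8 (SD, n = 8). Of these arrays 3 lay above every MN array and within the dCIN range, and 5 lay within the MN range. The differences were 0.23 from MN (SE 0.12, limma adjusted p = 0.412) and -0.27 from dCIN (SE 0.12, limma adjusted p = 0.616). On the log2 scale, with the MN mean at 0 and the dCIN mean at 1, the MIX mean lay at 0.573 for Penk and 0.458 for Npy. MIX array 6, the highest of its group for Penk, was the lowest for Npy. Array 3 was instead high for both genes (119 and 76.1), and array 7 was low for both (26.0 and 48.4).

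Among the other members, Pdyn was held to 60.0 to 69.8 on the 8 MIX arrays. That range was narrower than in dCINs or MNs with all arrays, and wider than the 53.0 to 57.6 of dCIN and the 56.5 to 65.3 of MN arrays numbered 3 and above. The brighter Sst probe set had a MIX mean of 1317 ± 666 and the brighter Tac1 probe set one of 636 ± 345 (SD, n = 8 each), within the spread of the labelled groups. Cck and Gal had MIX means of 69.3 ± 16.7 and 97.9 ± 32.5 (SD, n = 8 each). None of the 7 probe sets of these genes was called against either labelled group in any setting tried. Their limma adjusted p-values ran from 0.437 to 0.952 for MIX against MN.

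In order of mean signal, Penk and Npy ran dCIN, MIX, MN. For both, the neighbours in that order, dCIN with MIX and MIX with MN, did not differ at the adjusted threshold, and only the ends did. Group membership accounted for 56.7% of the log2 variance of Penk over the 22 arrays and for 47.2% of that of Npy, against 0.664% to 18.6% for the other 7. Penk also had a wide range, 8.77-fold from the lowest to the highest array, as did the brighter Sst probe set at 9.02-fold, of whose variance 4.38% lay between groups.

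**Figure D3:**
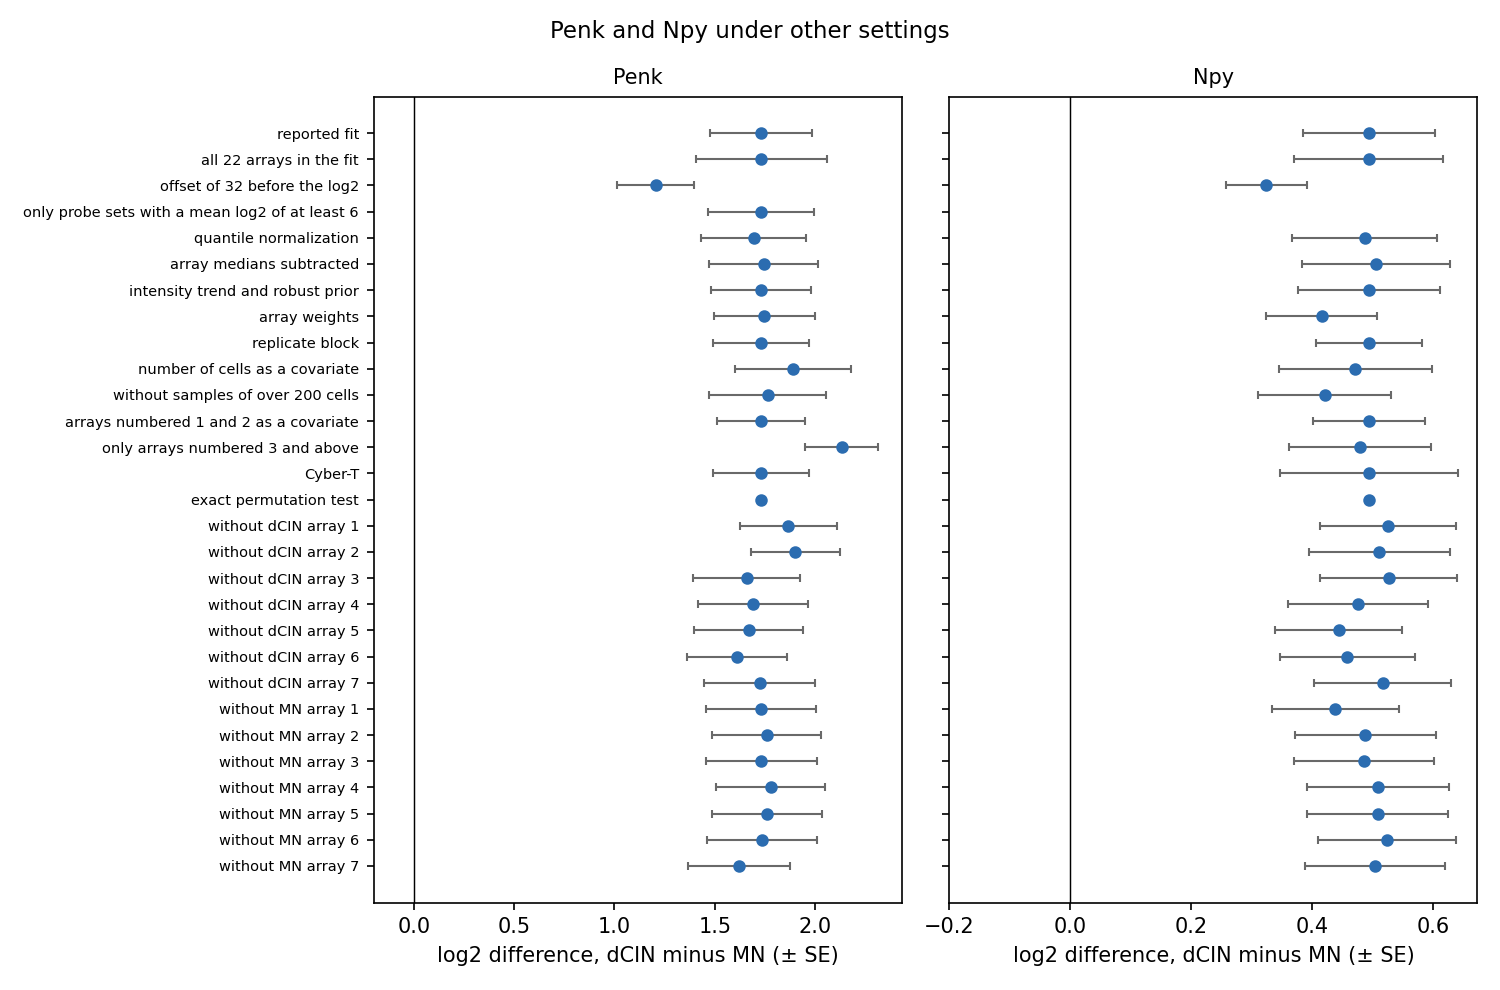
Log2 difference dCIN minus MN of Penk (left) and Npy (right) ± SE in the reported fit, under 14 other settings and with each of the 14 arrays left out in turn, where filled points were called at an adjusted p under 0.1. Every point is filled and lies above 0, the exact permutation test has no SE, and Npy has no point where probe sets with a mean log2 signal under 6 were removed.

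The call for Penk held in each of the 30 alternatives run, with differences between 1.21 and 2.13, and that for Npy in each of the 29 in which it was tested, with differences between 0.32 and 0.53. Npy was dropped from the test by a filter that kept probe sets with a mean log2 signal of at least 6, since its own mean was 5.92. Adding 32 to each signal before the logarithm gave the smallest differences, 1.21 for Penk and 0.32 for Npy.

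Of 15 astrocyte genes listed, 5 had probe sets under their symbol, and Gfap was not among them. The paper reports very low signal and no change between the groups for its Gfap probe sets. By log2 mean 8 of the 9 probe sets for the 5 astrocyte genes were higher in dCINs, against 43% of all probe sets. Of the 9, 1 was called (3.81% of all), for Apoe (X04979_at, 6027 against 3768), and the other 8 were not. Among these 8 were the other Apoe probe set (368 against 212, limma adjusted p = 0.118) and S100b (1103 against 771, limma adjusted p = 0.170). The summed signal of the 9, most of it from X04979_at, ran from 5630 to 8780 in dCIN, 3574 to 6261 in MN and 3661 to 9059 in MIX arrays. Only dCIN array 3, at 5630, lay at or below the highest MN sum. On it Penk was 178, exceeded among dCINs only on array 6, and Npy was 62.9, the lowest of the dCIN arrays. No oligodendrocyte probe set of 12 was called, with sums of 802 to 1251 in dCIN and 838 to 1108 in MN arrays, nor was the single probe set for microglia or for sensory neurons, and vessel markers had no probe set. The part of astrocyte transcripts in the Penk and Npy differences was not tested.

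Over the 22 arrays, the probe sets whose log2 signal followed Penk most closely were those for Grm4, a metabotropic glutamate receptor (r = 0.85), Kcnc1, a potassium channel of fast-firing neurons (r = 0.81), and Hcrtr2, an orexin receptor (r = 0.80). With the group means removed these were 0.66, 0.72 and 0.57. The ones most like Npy were those for Rab28, a small GTPase (r = 0.70), Htr5b, a serotonin receptor (r = 0.66), and again Kcnc1 (r = 0.65), which became 0.66, 0.31 and 0.37 with group means removed. Penk and Npy correlated with each other at r = 0.64, and at 0.27 within groups. These are descriptions over arrays that share group differences and normalization, and they carry no test.

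The receptors on which these peptides act were measured in part, by 17 probe sets for 14 of 31 listed genes. In dCINs against MNs 1 of the 17 was called, where 3.81% of all probe sets were, so the count says little about receptors as a set. It was Sstr2, a somatostatin receptor, whose signal was 80.8 ± 24.0 on dCIN and 48.8 ± 5.78 on MN arrays (SD, n = 7 each), a log2 difference of 0.69 (SE 0.16, limma adjusted p = 0.0295). The other 16 were not called. Those with the next smallest p-values were Npy1r, a neuropeptide Y receptor, at 0.77 (SE 0.37, limma adjusted p = 0.485), and Oprk1, the kappa opioid receptor, at -0.33 (SE 0.18, limma adjusted p = 0.566) in its probe set E08874cds_s_at. The median of the 17 was -0.082 against -0.034 over all probe sets. In MIX, Sstr2 had 57.9 ± 14.3 (SD, n = 8) and was not called against either group.

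**Figure D4:**
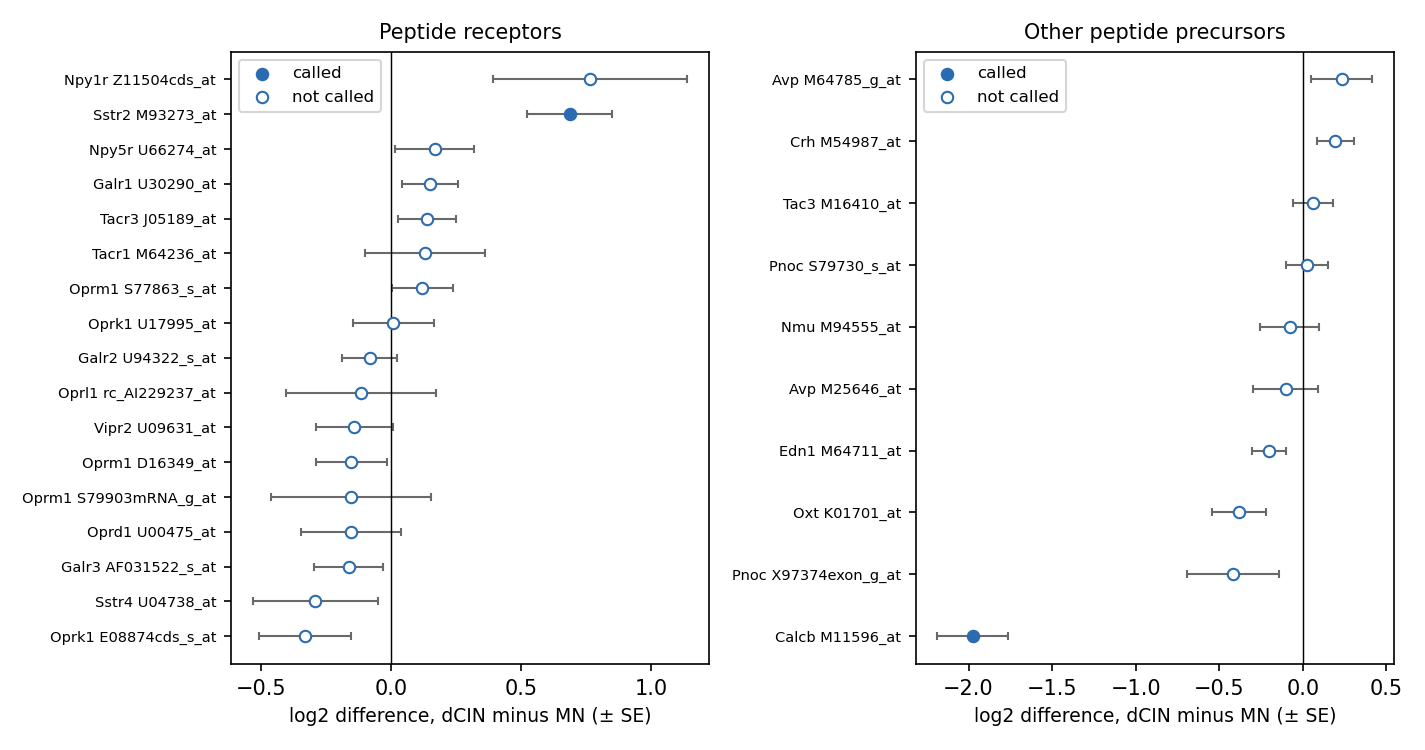
Log2 difference dCIN minus MN ± SE (7 arrays each) for the 17 peptide receptor probe sets (left) and the 10 probe sets of other peptide precursors (right), each ordered by difference. Filled points were called at an adjusted p under 0.1, Sstr2 among receptors and Calcb among precursors, and the remaining 25 points are open.

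Of 35 other peptide precursor genes listed, 8 were measured by 10 probe sets. Of the 10, 1 was called (3.81% of all probe sets were), Calcb, which encodes a calcitonin gene-related peptide of motor and sensory neurons. Its signal ran opposite to Penk and Npy, 103 ± 39.9 in dCINs against 387 ± 62.1 in MNs (SD, n = 7 each), a log2 difference of -1.98 (SE 0.21, limma adjusted p = 6.3e-05). It was also called lower in MIX than in MN, by -1.13 (limma adjusted p = 0.0881). Oxt, the oxytocin precursor, at -0.38 (limma adjusted p = 0.388), and Edn1, the endothelin precursor, at -0.20 (limma adjusted p = 0.503), were not called. Of 26 genes for cutting, packing or breaking down peptides 3 were measured and 0 called by limma (3.81% of all probe sets were), with 0 at an unadjusted p under 0.05. They were Vgf, a granin-like protein of dense core vesicles, at -0.29 (SE 0.16, limma adjusted p = 0.581), and Cpz and Nln at -0.071 and 0.017.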

How the data were processed

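Arrays were made from amplified RNA of laser-dissected cells, 7 dCIN, 7 MN and 8 MIX. The deposited values are intensities on a linear scale, made by the authors with the affy package from perfect match probes: global background subtraction, quantile linear transformation, quantile projection normalization over the 22 arrays, Li-Wong summaries and subtraction of a common minimum. Array medians were 43.5 to 50.9. Detection calls were not used, and the number of arrays limits the precision. Log2 values of all 1050 probe sets were fitted with limma 3.58.1 (R 4.3.3), 14 arrays for dCIN against MN and 22 for MIX contrasts, with Benjamini-Hochberg adjustment and a threshold of 0.1. Platform annotation gave 961 probe sets 1 symbol, 7 several and 82 none. The script was tested on simulated data. Promoters (RefSeq, GRCr8) were searched with Python 3.11.15. Named genes were all members, called genes and those with the 3 smallest p-values of each pathway list, and the 3 probe sets most like each called member. The members, lists and the split by array number were chosen with earlier results of these data known. Alternatives covered scale, filter, normalization, weights, cell number, array number, test and leaving out each array.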

Additional observations from a re-analysis of the deposited data

Results flagged for a closer look

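In 27 sets of signals, 9 probe sets in each of 3 groups, an array lay far from the rest of its group 6 times by Dixon's ratio. For independent, normally distributed values chance alone gives this in about 1 in 20 sets. The signals here were on the linear scale and the sets share arrays, so the count cannot be set against that rate. For Penk, MN array 7 was low at 24.9, with the next array at 39.6. For the brighter Tac1 probe set, MN array 3 was high at 1707, with the next at 759. MIX array 7, which had the lowest summed signal and the lowest Penk of its group, was high at 34.8 for the dimmer Tac1 probe set, with the next at 25.4, and high at 107 for Cck, with the next at 71.8. For Gal, dCIN array 1 was high at 199.5 over 120, and MN array 1 was high at 174 over 127.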

How the results depend on the processing

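The count of 2 called precursors in dCIN against MN fell to 1, Penk, under the filter on mean log2 signal, which left Npy out of the test, and was 2 to 3 elsewhere. It was 2 whichever array was left out. The replicate block by array number, with 55 probe sets called in all against 40, gave 2, with limma adjusted p of 0.00361 for Penk and 0.013 for Npy, and lowered the SE of Sst M25890_at from 0.48 to 0.22 (limma adjusted p = 0.387). The numbers were not taken to pair the samples, since the deviations of same-numbered dCIN and MN arrays correlated between -0.192 and 0.532, over 0.1 in 5 of 7, and 2 of 7 correlated best with their own number. In MIX against MN the count was 1, Penk, under array weights and by Cyber-T, and 0 to 1 with an array left out. In MIX against dCIN it was 0 throughout. Of the 6 probe sets most like Penk or Npy, 5 remained on the linear scale and 2 with group means removed.

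Signs turned only for members that were not called. Under array weights these were Gal dCIN minus MN (0.066), Tac1 M15191_s_at MIX minus MN (0.27) and MIX minus dCIN (0.10), Cck (-0.13) and Gal (0.059) MIX minus MN, and Tac1 X56306_s_at (-0.042) and Sst K02248cds_s_at (0.014) MIX minus dCIN. With cell number as a covariate they were Gal dCIN minus MN (0.092) and Pdyn MIX minus dCIN (-0.21). Without samples of over 200 cells they were Gal dCIN minus MN (0.090), and Pdyn (0.068) and Cck (-0.13) MIX minus MN. With only arrays numbered 3 and above they were Tac1 M15191_s_at dCIN minus MN (-0.17) and MIX minus dCIN (0.060), Pdyn (0.073) and Cck (-0.12) MIX minus MN, and Sst M25890_at MIX minus dCIN (-0.39). With an array left out, values crossed 0 for Tac1 M15191_s_at in dCIN minus MN (-0.20 to 0.28), MIX minus MN (-0.34 to 0.16) and MIX minus dCIN (-0.32 to 0.14), Gal dCIN minus MN (-0.22 to 0.047), Cck MIX minus MN (-0.075 to 0.081), Tac1 X56306_s_at (-0.086 to 0.053), Sst K02248cds_s_at (-0.083 to 0.014) and Sst M25890_at (-0.12 to 0.33) MIX minus dCIN. The cause was not tested.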
